A study of Mus musculus with 21 samples.

Results

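The 9 genes described here, known from germ cells or the testis, were followed in mouse embryonic stem cells (ESCs) with and without Ddx6: Dazl, Mael, Mov10l1, Sycp3, Hormad1, Taf7l, Tex19.1, Gtsf1l and Ssmem1. They are 9 of the 51467 mouse genes counted, found by matching each symbol to its Ensembl identifier, and all 9 passed the filter of at least 3 CPM (counts scaled to the size of the library) in at least 3 libraries. Gtsf1l and Ssmem1 had been selected on their large changes in these same counts between Ddx6 KO and wild-type ESCs, so their genotype changes are described here without a test. The other 7 were chosen for what they are known to do, but with earlier results of these data known. Their p values are therefore not those of a choice blind to the data. Wild-type cells were grown as 3 cultures, and Ddx6 KO cells, made with CRISPR-Cas9, as 2 cultures of each of 2 clones, so the genotype is represented by 2 clonal lines, 1 with an inserted nucleotide and the other with a large deletion in Ddx6. All cells were ESCs kept in Knockout DMEM with fetal bovine serum, LIF, PD0325901 and CHIR99021, and all were given 500 µM 4-thiouridine (4sU) for 30 min before RNA was extracted. Each extract was divided into a 4sU pulldown, which holds nascent RNA, and total RNA. The comparison of Ddx6 KO with wild type asks how loss of DDX6, an RNA helicase of translational repression and mRNA decay, altered transcription, mRNA level and mRNA stability. No label says that the cultures of a line were started separately, so p values measure the spread between these cultures, which may be technical.

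Germline genes are active in germ cells and are kept silent or low in most other cells by CpG methylation of their promoters and by repressor complexes that contain MAX and E2F6. ESCs, which are close to the cells that give rise to the germline, express several of them at a low or moderate level. DAZL and the piRNA proteins MAEL and MOV10L1 act on RNA in germ cells: DAZL binds 3′ UTRs, MOV10L1 is an RNA helicase that feeds transcripts into piRNA production, and MAEL works in transposon silencing in the nuage. SYCP3 and HORMAD1 belong to the axis of meiotic chromosomes. TAF7L is a germ-cell paralog of the TFIID subunit TAF7, and TEX19.1 is a mammalian protein of germ cells, ESCs and placenta that restrains retrotransposons. Gtsf1l encodes a zinc finger protein related to the piRNA factor GTSF1, and Ssmem1 encodes a single-pass membrane protein of the testis.

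The sequences around 2 short motifs are shown because each occurred both in genes that rose in Ddx6 KO cells and in genes that were not called. The motifs were CACGTG, the E-box that MAX dimers recognise and which reads the same on both strands, and GCGGGA, the core of an E2F site, searched on both strands and so also as TCCCGC. The windows searched ran from 250 bases before to 50 bases after each RefSeq start in GRCm38.p6. All 9 genes had a window. CACGTG was present in 5 of the 9 genes, against 7.15% of 32851 windows of all genes. GCGGGA was present in 4 of the 9, against 20% of all windows, and 3 genes (Mael, Sycp3 and Hormad1) had both, against 1.99%. The lines below give the strand on which the gene is read, with the motif in capitals.
Mael, chr1:166238950-166238979, minus strand, CACGTG beginning 223 bases before the start: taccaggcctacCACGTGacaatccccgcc
Mov10l1, chr15:88982744-88982765, plus strand, CACGTG beginning 246 bases before the start: ccttCACGTGctaaccgccaac
Taf7l, chrX:134476522-134476551, minus strand, CACGTG beginning 49 bases before the start: accctcttatacCACGTGacagaactcgcc
Sycp3, chr10:88459511-88459540, plus strand, CACGTG beginning 64 bases before the start: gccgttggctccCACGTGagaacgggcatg
Hormad1, chr3:95559608-95559637, plus strand, CACGTG beginning 57 bases before the start: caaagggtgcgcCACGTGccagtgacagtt
Tex19.1, chr11:121146098-121146127, plus strand, GCGGGA beginning 33 bases before the start: agctggagcatcGCGGGActtggcccttta
Sycp3 and Hormad1 each held a second CACGTG nearer the start, and Gtsf1l, Ssmem1 and Dazl held neither motif. For GCGGGA only the Tex19.1 line is printed. Not printed are those beginning 143 bases before the start in Mael, as TCCCGC, 147 bases before it in Sycp3 and 95 in Hormad1. Mael also held a GCGGGA after the start. A match is a description of these letters and not a binding site. The Gtsf1l window was poor in CpG, with 2 CpG dinucleotides against a median of 7 over all windows and an observed over expected CpG ratio of 0.130, whereas the ratio was 0.575 for Tex19.1 and 1.03 for Taf7l. That of Taf7l was higher than 95.5% of all windows, and that of Gtsf1l higher than 17.8%. The median ratio of all windows was 0.384. Both motifs contain a CpG, and their shares among windows of like CpG content were not taken. RefSeq starts Gtsf1l 1746 bases upstream of the start in the annotation that was counted, and no methylation was measured in these cells.

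The 4sU libraries held 2441639 to 3570192 counts and the total RNA libraries 5724179 to 7369651, and 3 counts corresponded to at most 1.23 CPM in a 4sU library and 0.524 CPM in a total RNA library. These floors and the intervals given with counts cover counting error only. Ddx6 mRNA was at 314 to 363 CPM in wild-type total RNA and at 22.5 to 70.7 CPM in Ddx6 KO total RNA. A gene was called in a comparison at an adjusted p under 0.05 and a log2 fold change above 1 in size. All 8 ESC markers exceeded 3 CPM in each genotype, with means over the 14 libraries from 399 CPM for Tdgf1 to 1029 CPM for Nanog, while summed markers of spermatids and testis somatic cells reached at most 1.75 CPM in total RNA, with the protamines Prm1 and Prm2 and the acrosomal Acrv1 at 0. Summed fibroblast markers were at 11.5 to 14.8 CPM in wild-type and 16.6 to 18.2 CPM in Ddx6 KO total RNA, with Col1a2 at 0 in wild type and Postn at 0 in all libraries. Among them Thy1 rose in mRNA (log2 fold change 1.47, edgeR adjusted p = 2.02e-06), while Pdgfrb, the most abundant, went from 8.46 to 4.94 CPM (-0.94, adjusted p = 0.000203), under the minimum size. Summed primitive endoderm markers were at 8.09 to 13.3 and 12.6 to 18.97 CPM, and trophoblast markers at 14.1 to 19.08 and 12.2 to 16.7 CPM, in wild-type and Ddx6 KO total RNA. Means over all libraries ran from 0.344 CPM for Sox7 to 5.13 CPM for Dab2 among the former, and from 0.187 CPM for Hand1 to 16.2 CPM for Eomes among the latter. Of these markers, Amh (log2 fold change -1.34, adjusted p = 0.00174) and Gata3 (-2.05, adjusted p = 1.3e-07) fell in nascent RNA, and Gata3 rose in stability (1.67, adjusted p = 0.019), for which DESeq2 gave no adjusted p. Thy1 reached 3 CPM in 3 libraries in Ddx6 KO only and Amh in wild type only, and with no filter beyond 1 count they were at 1.57 (adjusted p = 1.07e-07) and -1.28 (adjusted p = 0.00489). The part of such cells in the results below was not tested. In bulk RNA, more cells that express a gene and more RNA of it per cell cannot be told apart.

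In wild-type cells the levels of the 9 genes differed widely. Levels are compared between genes as CPM per kilobase of exonic length. In total RNA, Tex19.1 was highest at 50.0 ± 3.35 (SD, n = 3), at the 89.0th percentile of the 14518 genes tested. Gtsf1l followed at 37.1 ± 1.72, Hormad1 at 17.1 ± 1.09, Dazl at 13.9 ± 1.51 and Sycp3 at 5.77 ± 0.969. Mael was at 2.59 ± 0.232, Mov10l1 at 1.41 ± 0.548 and Taf7l at 0.491 ± 0.0977, with Ssmem1 last at 0.0297 ± 0.0514, the 0.441st percentile. The ranges of neighbours in this order did not overlap. In 4sU RNA, Tex19.1 led again at 141 ± 6.58 CPM per kilobase, before Gtsf1l at 23.8 ± 3.79 and Dazl at 10.6 ± 0.751. Sycp3 (6.72 ± 1.29) and Hormad1 (5.74 ± 0.456) overlapped, and Ssmem1 followed at 2.22 ± 0.439. Mael (0.817 ± 0.308), Mov10l1 (0.729 ± 0.161) and Taf7l (0.428 ± 0.372) came last, each overlapping the next. Ssmem1 thus had more nascent RNA per kilobase than Mael, Mov10l1 and Taf7l but less total RNA than each of them.

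**Figure D1:**
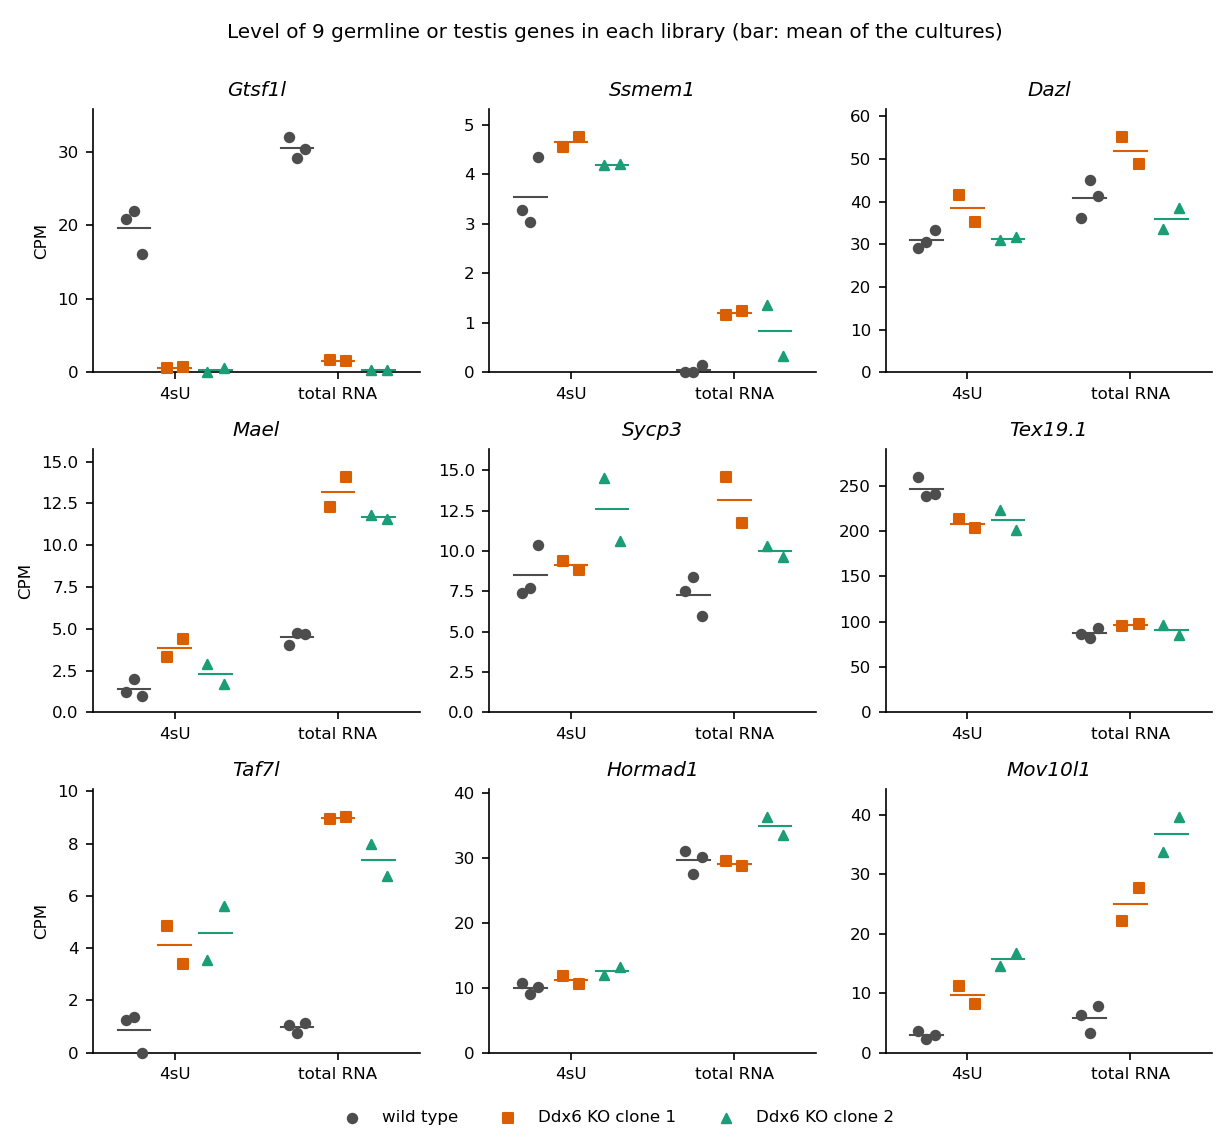
CPM of each gene in each 4sU and total RNA library, with 1 panel per gene and its own axis from 0, points for cultures and short bars for the mean of each line. Mov10l1, Taf7l, Mael, Sycp3 and Ssmem1 stand higher in the total RNA of all 4 Ddx6 KO cultures than in all 3 wild-type cultures. Gtsf1l stands near 0 in Ddx6 KO, and Dazl and Hormad1 overlap. In mRNA, on TMM-scaled values, the genotypes did not overlap for 52.4% of all genes tested. Gtsf1l and Ssmem1 were picked for their change and Taf7l passed the filter through Ddx6 KO only. These genes are therefore not set against that share.

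Below, values for cultures are listed as wild type 1 to 3, then clone 1 cultures 1 and 2, then clone 2 cultures 1 and 2. Among the genes of RNA silencing, Mov10l1 (ENSMUSG00000015365, chr15:88982909-89055152, plus strand) rose in nascent and in total RNA. Its 4sU counts were 9, 7 and 9 in wild type, 37 and 24 in clone 1, and 45 and 60 in clone 2. In total RNA it was at 6.29, 3.36 and 7.82 CPM in wild type, 22.2 and 27.7 CPM in clone 1, and 33.8 and 39.5 CPM in clone 2. Every Ddx6 KO culture was above every wild-type culture in both kinds of RNA, and clone 2 was above clone 1. The log2 fold change was 1.89 (SE 0.44, adjusted p = 0.00169) in nascent RNA and 2.24 (SE 0.24, adjusted p = 2.24e-07) in mRNA by the quasi-likelihood test of edgeR, a 4.72-fold higher mRNA level. The change in mRNA stability, which is the change in total RNA minus that in 4sU, was 0.34 (SE 0.58, adjusted p = 0.782).

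Mael (ENSMUSG00000040629, chr1:166201201-166238747, minus strand) rose in mRNA. Its total RNA levels were 4.02, 4.73 and 4.69 CPM in wild type, 12.3 and 14.1 CPM in clone 1, and 11.8 and 11.6 CPM in clone 2. The 4 Ddx6 KO cultures lay well above the 3 wild-type cultures, 2.47-fold higher on fitting (log2 fold change 1.31, SE 0.20, adjusted p = 2.32e-07). In 4sU RNA Mael had 3, 6 and 3 counts in wild type, 11 and 13 in clone 1, and 9 and 6 in clone 2, so that 1 culture of clone 2 fell within the wild-type range in CPM. The nascent difference of 0.87 (SE 0.46, adjusted p = 0.126) did not pass the test, and at these counts a rise like that of the mRNA could not be separated from none. Its pooled 4sU counts, 12 in wild type and 39 in Ddx6 KO, gave a CPM ratio of 2.12 with a 95% counting interval of 1.09 to 4.44.

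Taf7l (ENSMUSG00000009596, chrX:134460118-134476490, minus strand) showed the largest mRNA rise of the 7 genes not picked for their change. Wild-type total RNA held 6, 5 and 8 Taf7l counts, against 54 and 66 in clone 1 and 59 and 42 in clone 2. In 4sU RNA there were 3, 4 and 0 counts in wild type, 16 and 10 in clone 1, and 11 and 20 in clone 2. The 0 in the third wild-type culture allows up to 1.00 CPM. The genotypes did not overlap in nascent RNA, where the log2 change was 2.16 (SE 0.52, adjusted p = 0.000486), nor in mRNA, where it was 2.87 (SE 0.32, adjusted p = 3.35e-11), or 7.31-fold. Without the third wild-type culture the nascent change was 1.54 (adjusted p = 0.0157). Pooled over cultures, total RNA counts gave an 8.33-fold higher CPM (95% counting interval 5.21 to 14.1). Taf7l reached 3 CPM in Ddx6 KO libraries only (8 of 8, against 0 of 6 in wild type), so it would not have been tested under this filter had it not risen. With no filter beyond 1 count, which does not depend on genotype, the log2 change was 2.22 in nascent RNA (adjusted p = 0.000263) and 2.97 in mRNA (adjusted p = 2.1e-18). Its paralog Taf7, the TFIID subunit of most cells, was not called in any contrast. Taf7 was lower in nascent RNA (-0.45, edgeR adjusted p = 1.63e-09) and in mRNA (-0.24, adjusted p = 0.000223), both under the minimum size.

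Of the meiotic chromosome genes, neither Hormad1 nor Sycp3 was called in any contrast. Hormad1 (ENSMUSG00000028109, chr3:95559677-95587671, plus strand) was at 31.1, 27.5 and 30.2 CPM in wild-type total RNA, 29.5 and 28.7 CPM in clone 1, and 36.2 and 33.4 CPM in clone 2. The genotypes overlapped, with a log2 difference of -0.04 (SE 0.10, adjusted p = 0.765) in mRNA and 0.07 (SE 0.20, adjusted p = 0.825) in nascent RNA. Sycp3 (ENSMUSG00000020059, chr10:88459569-88473236, plus strand) was at 7.51, 8.40 and 5.97 CPM in wild-type total RNA, 14.6 and 11.7 CPM in clone 1, and 10.3 and 9.65 CPM in clone 2. All 4 Ddx6 KO cultures were above all wild-type cultures, but the log2 difference of 0.51 (SE 0.18, adjusted p = 0.0181) was under the minimum of 1. With clone 2 alone the adjusted p was 0.229, without the third wild-type culture 0.132, and without the first culture of clone 1 0.0886. In 4sU RNA Sycp3 had 18, 23 and 31 counts in wild type, 31 and 26 in clone 1, and 45 and 38 in clone 2, which overlap in CPM (log2 difference 0.14, SE 0.24, adjusted p = 0.684). Sycp3 lies within Chpt1 on the opposite strand, and reads were counted by strand.

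Dazl (ENSMUSG00000010592, chr17:50279394-50293599, minus strand) was at 29.1, 30.6 and 33.4 CPM in wild-type 4sU RNA, 41.6 and 35.3 CPM in clone 1, and 31.0 and 31.7 CPM in clone 2. In total RNA it was at 36.2, 45.0 and 41.3 CPM in wild type, 55.1 and 48.8 CPM in clone 1, and 33.7 and 38.4 CPM in clone 2. In total RNA the mean of clone 1 lay above and that of clone 2 below that of wild type, while in 4sU RNA clone 2 lay within the wild-type range. The difference between genotypes was -0.04 (SE 0.17, adjusted p = 0.867) in nascent RNA and -0.06 (SE 0.12, adjusted p = 0.725) in mRNA on the log2 scale. Its stability difference was -0.02 (SE 0.21, adjusted p = 0.979).

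Tex19.1 (ENSMUSG00000039329, chr11:121146143-121148319, plus strand), the most abundant of the 9, was at 259.7, 238 and 241 CPM in wild-type 4sU RNA, 214 and 203 CPM in clone 1, and 223 and 201 CPM in clone 2. Total RNA held 86.7, 81.7 and 93.3 CPM in wild type, 94.9 and 97.7 CPM in clone 1, and 96.6 and 85.4 CPM in clone 2. Nascent RNA was thus lower in every Ddx6 KO culture while total RNA overlapped. The nascent log2 difference was -0.43 (SE 0.07, adjusted p = 1.81e-07), that of mRNA -0.05 (SE 0.07, adjusted p = 0.533) and that of stability 0.38 (SE 0.09, adjusted p = 0.0041). None of these reached a size of 1. With clone 2 alone the stability difference was 0.34 with an adjusted p of 0.0638. Tex19.1 has a neighbouring paralog, Tex19.2, and reads that map to both are not in these counts, which hold uniquely mapped reads.

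Gtsf1l (ENSMUSG00000070708, chr2:163087034-163087855, minus strand, 1 exon) was nearly lost in Ddx6 KO cells, which is why it was picked. Its 4sU counts were 51, 65 and 48 in wild type, 2 and 2 in clone 1, and 0 and 2 in clone 2, where the 0 allows up to 0.967 CPM. Total RNA held 183, 191 and 213 counts in wild type, 10 and 11 in clone 1, and 2 and 2 in clone 2. Both kinds of RNA were low in both clones, and only wild-type libraries reached 3 CPM. The fitted log2 fold change was -5.52 (SE 0.38) in nascent RNA and -5.15 (SE 0.23) in mRNA. Pooled CPM were 42.0-fold higher in wild-type 4sU RNA (95% counting interval 18.9 to 116) and 32.8-fold higher in wild-type total RNA (22.0 to 51.1). The stability difference was 0.37 with an SE of 0.65, so that the ratio of total to 4sU was hardly measurable in Ddx6 KO. Mybl2, the gene that ends within 5000 bases of Gtsf1l on the opposite strand and was looked up for that reason, was at 473 CPM in wild-type and 266 CPM in Ddx6 KO total RNA.

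Ssmem1 (ENSMUSG00000029784, chr6:30509849-30520254, plus strand) was picked for its change in total RNA. Wild-type total RNA held 0, 0 and 1 counts, against 7 and 9 in clone 1 and 10 and 2 in clone 2. In 4sU RNA there were 8, 9 and 13 counts in wild type, 15 and 14 in clone 1, and 13 and 15 in clone 2. Nascent RNA was therefore present in all 7 cultures, while total RNA was almost without reads in wild type. The 0 in the first and in the second wild-type culture allow up to 0.524 and 0.458 CPM. The pooled total RNA counts, 1 in wild type and 28 in Ddx6 KO, gave a ratio of 20.1 with a 95% counting interval of 3.32 to 820. The fitted log2 fold change was 0.10 (SE 0.39) in nascent RNA, 3.65 (SE 0.87) in mRNA and 3.55 (SE 0.99) in stability. Without the third wild-type culture, which holds the single wild-type count, the fitted mRNA change was 5.31, and with limma-voom it was 3.00. Ssmem1 lies on chromosome 6, where the median log2 change of 735 genes was 0.53 in nascent RNA and 0.43 in mRNA, against -0.02 and -0.12 on the other chromosomes. Its neighbour Tmem209, which starts on the opposite strand within 5000 bases and was looked up for that reason, was at 86.6 CPM in wild-type and 153 CPM in Ddx6 KO 4sU RNA, and at 118 and 144 CPM in total RNA.

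Of the 7 genes that were not picked for their change, Taf7l could pass the filter only by being high in Ddx6 KO and is left out of the counts that follow. Among the other 6, 1 (Mov10l1) was called higher in nascent RNA and 0 lower. Over all 14518 genes, 5.13% were called higher and 10.9% were called in either direction in nascent RNA. This and the other shares of all genes below include genes that passed through 1 genotype only, unlike the 6. No share was taken over genes that passed in each genotype alone. In mRNA, 2 of the 6 (Mov10l1 and Mael) were called higher and 0 lower, against 5.28% called higher and 10.1% called in either direction over all genes. Calls over all genes were 745 higher and 842 lower in nascent RNA and 767 higher and 705 lower in mRNA, and with scaling by library size alone 1136 and 504 and 997 and 465. The median log2 change of the 6 was 0.10 in nascent RNA and 0.23 in mRNA, beside 0.00 and -0.10 over all genes. For stability, 0 of the 7, Taf7l included, were called by edgeR, by DESeq2 or by limma-voom, where 1.08% of all genes were called and 0.689% were called higher. Of the 7, 1 (Tex19.1) had an unadjusted p under 0.05 for stability. The genotypes did not overlap for 2 of the 6 genes in nascent RNA, 3 in mRNA and 1 in stability, which was the case for 41.7%, 52.4% and 22.9% of all genes. Lack of overlap among the 6 was therefore near the background.

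**Figure D2:**
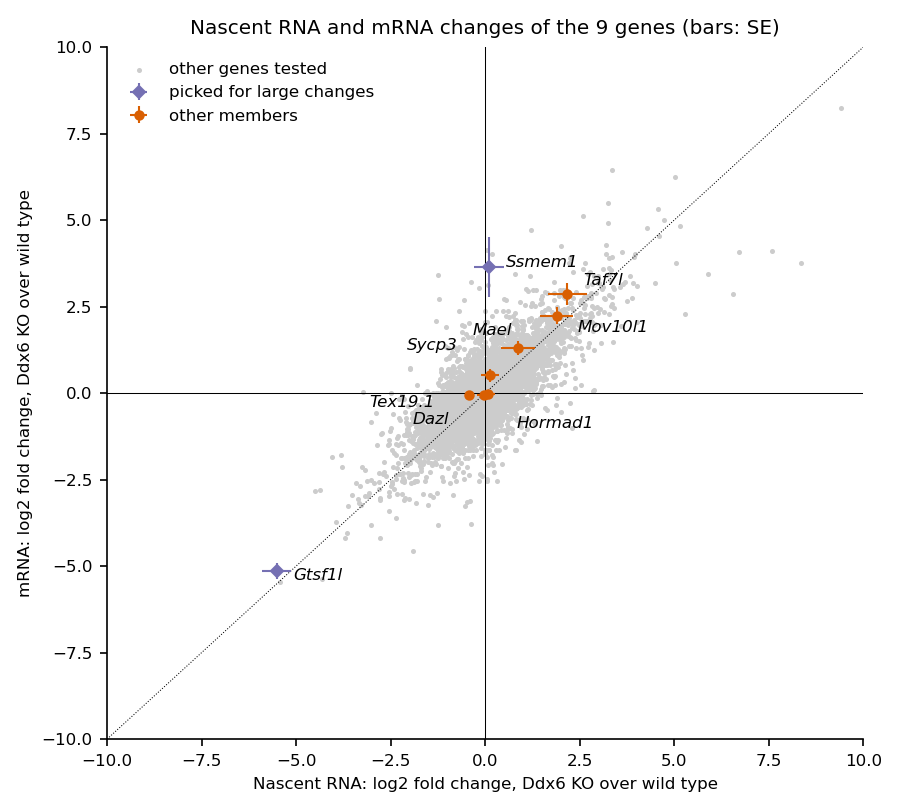
Log2 fold change of mRNA (vertical axis) against that of nascent RNA (horizontal axis), Ddx6 KO over wild type, for all genes tested (grey) and the 9 genes with SE bars; the dotted line marks equal changes. Taf7l and Mov10l1 lie near the dotted line at 2.16 and 2.87 and at 1.89 and 2.24, and Ssmem1 lies far above it at 0.10 and 3.65.

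The ratio of total to 4sU RNA, which stands for relative mRNA stability, differed widely among the 9 genes in wild-type cells. On the log2 scale of TMM-scaled CPM plus 0.5, all genes tested had a median of 0.07, with the middle 50% between -1.11 and 0.87. Hormad1, at 1.52 ± 0.03 (SD, n = 3, 91.1st percentile), and Mael, at 1.42 ± 0.38 (89.0th percentile), had the highest mean ratios. Their cultures overlapped, and with a pseudocount of 0.1 CPM Mael was at 1.64 and Hormad1 at 1.56. Mov10l1 was at 0.79 ± 0.42, Gtsf1l at 0.62 ± 0.25, Dazl at 0.37 ± 0.14, Taf7l at 0.35 ± 1.27 and Sycp3 at -0.22 ± 0.47. The Taf7l mean rested on the third culture, at 1.79 beside -0.18 and -0.57, and was 0.91 and 0.19 with pseudocounts of 0.1 and 1 CPM. Tex19.1 had a low ratio of -1.51 ± 0.12 (19.6th percentile) despite its high level. Ssmem1 was lowest at -2.98 ± 0.05 (5.05th percentile), but with pseudocounts of 0.1 and 1 CPM its wild-type ratio was -4.84 and -2.20, so that its value is set mostly by the pseudocount.

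In Ddx6 KO cells the ratio was 1.42 ± 0.13 (SD, n = 4) for Hormad1, 1.93 ± 0.39 for Mael, 1.30 ± 0.31 for Mov10l1, 0.50 ± 0.58 for Gtsf1l and 0.35 ± 0.14 for Dazl. Taf7l was at 0.89 ± 0.45 and Sycp3 at 0.13 ± 0.49. Tex19.1 was at -1.13 ± 0.07, with culture ratios of -1.13, -1.03, -1.16 and -1.20 above the wild-type ratios of -1.60, -1.56 and -1.37. Ssmem1 was at -1.72 ± 0.51. With pseudocounts of 0.1 and 1 CPM the Ddx6 KO ratio was 0.91 and 0.35 for Gtsf1l and -2.13 and -1.41 for Ssmem1. Gtsf1l had at most 2 counts in a Ddx6 KO 4sU library, so its ratio there depends on the pseudocount. Apart from Tex19.1 and Ssmem1, the cultures of both genotypes overlapped for each gene. Ssmem1 was picked for its change, so its lack of overlap is not a result. Over all genes tested, the ratios of the genotypes did not overlap for 22.9%.

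**Figure D3:**
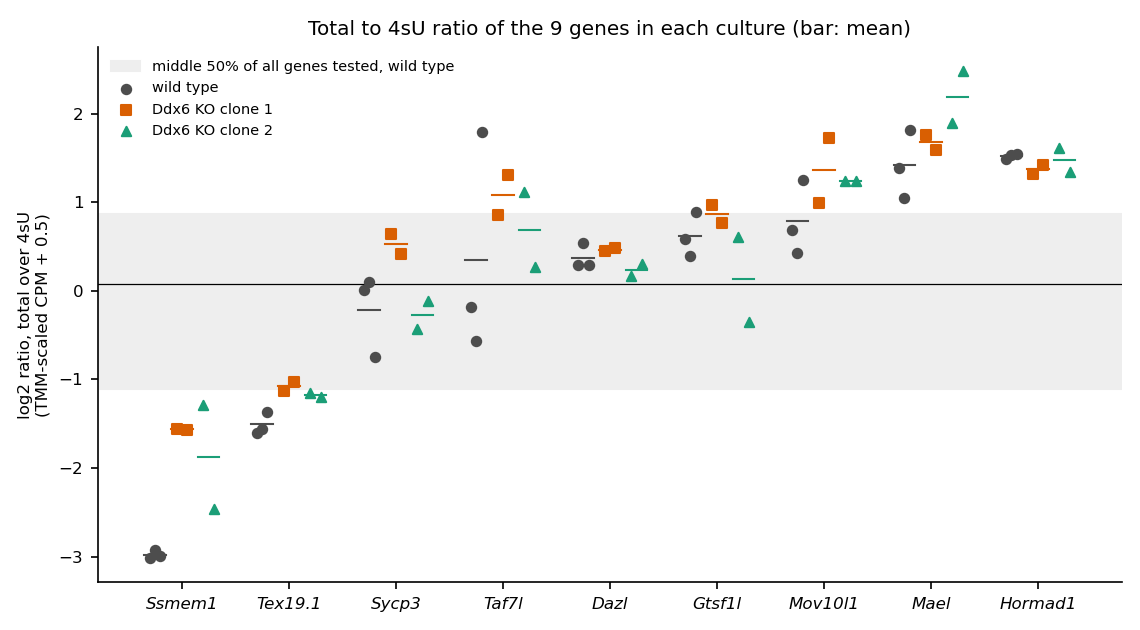
Log2 ratio of total to 4sU RNA (TMM-scaled CPM plus 0.5) in each culture, genes ordered by their wild-type mean; short bars are line means, the grey band holds the middle 50% of all genes in wild type and the line their median. The wild-type cultures of Ssmem1 and Tex19.1 sit below the band and those of Mael and Hormad1 above it, and the Tex19.1 cultures of both clones lie between -1.20 and -1.03, above wild type and around the lower edge of the band at -1.11.

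The clones are separate lines of 1 genotype, and their difference was not used to pick any gene. None of the 9 genes was called between clone 2 and clone 1 in nascent RNA (edgeR, 1 with an unadjusted p under 0.05, 0 with DESeq2 or limma-voom), where 0.0689% of all genes were called. In mRNA 0 were called (4 with an unadjusted p under 0.05, 0 with DESeq2 or limma-voom), against 0.0827% of all genes. Dazl mRNA was lower in clone 2 by a log2 difference of -0.52 (SE 0.12, adjusted p = 0.0151), under the minimum size. That adjusted p was 0.142 with DESeq2, 0.58 without the first culture of clone 1 and 0.395 without the first culture of clone 2, fits in which that clone is 1 culture assumed to vary like the other lines. Gtsf1l mRNA differed by -2.31 (SE 0.65, adjusted p = 0.142), from 21 pooled counts in clone 1 and 4 in clone 2. Mov10l1 was higher in both cultures of clone 2 than in both of clone 1, by 0.68 (SE 0.27, adjusted p = 0.596) in nascent RNA and 0.55 (SE 0.16, adjusted p = 0.156) in mRNA, which did not pass the test. For Mael, Sycp3, Tex19.1, Taf7l, Hormad1 and Ssmem1 the clone differences in mRNA lay between -0.43 and 0.27, with adjusted p values of at least 0.72.

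Each gene was also set beside the gene whose profile was most like its own, by Pearson r of TMM-scaled log2 CPM over the 14 libraries. These r are descriptions, since all libraries share the contrasts of genotype and of RNA kind. Gtsf1l was most like Dclk2 (r = 0.990), Tex19.1 most like Brd2 (r = 0.995), Hormad1 most like Acat1 (r = 0.993) and Ssmem1 most like Fzd5 (r = 0.978). The nearest gene was Cd4 for Mov10l1 (r = 0.978), Man1a2 for Mael (r = 0.971) and Calml4 for Taf7l (r = 0.968). Dazl (Selenoi, r = 0.930) and Sycp3 (C330007P06Rik, r = 0.863) had less similar neighbours. No member was the nearest gene of another.

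Other germline genes, from lists assembled by function with earlier results of these data known, moved in both directions. Where a gene reached 3 CPM in 3 libraries of 1 genotype only, the filter itself required it to be higher there, and its value with no filter beyond 1 count is given too. The shares of all genes include such genes, so they are not like for like with counts of genes that passed in each genotype alone. Of 20 genes of the piRNA pathway and germ granules, 11 passed the filter, with 3 called higher and 1 lower in nascent RNA and 2 higher and 2 lower in mRNA, beside the 10.9% and 10.1% of all genes called in either direction. Among the 7 of them that passed in each genotype alone, 2 were higher and 1 lower in nascent RNA, and 2 higher and 2 lower in mRNA. The PIWI protein gene Piwil2 rose from 15.9 to 65.4 CPM in mean total RNA (log2 fold change 1.89, adjusted p = 2.98e-23) and by 1.90 in nascent RNA (adjusted p = 2.06e-12). Ddx4, the germ-granule helicase Vasa, rose from 12.3 to 48.3 CPM in total RNA (1.81, adjusted p = 5.15e-20) and by 2.08 in nascent RNA (adjusted p = 2.42e-09). Piwil1, which passed through Ddx6 KO only, was called in nascent RNA by edgeR (1.35, adjusted p = 0.0364, and 0.0341 with no filter beyond 1 count) but not by DESeq2 (adjusted p = 0.0601) or limma-voom (0.069). Tdrd12, a tudor protein of piRNA amplification, fell from 105.9 to 55.8 CPM in total RNA (-1.08, adjusted p = 9.67e-19), a size that was -0.98 with no filter beyond 1 count and so under the minimum. Pld6, a mitochondrial piRNA factor, fell by 2.11 on the log2 scale in mRNA (adjusted p = 2.68e-05) and by 1.16 in nascent RNA (adjusted p = 0.00652). The median of the 7 was 0.18 in nascent RNA and -0.01 in mRNA, beside 0.00 and -0.10 for all genes. With scaling by library size alone the calls of this list became 3 higher and 0 lower in nascent RNA and 4 higher and 1 lower in mRNA. With no filter beyond 1 count, which tests all 20 genes, they were 4 higher and 1 lower and 6 higher and 1 lower. The mRNA calls this added were Asz1, on chromosome 6, Henmt1, Tdrd1 and Tdrd7, named to complete the count. The first 3 failed the filter, at 0.350, 0.109 and 0.422 CPM in mean wild-type and 1.40, 1.56 and 1.86 CPM in Ddx6 KO total RNA, near the floor. Tdrd7 passed through Ddx6 KO only. Of the 31486 genes in that fit, 3.1% were called higher and 6.06% in either direction in nascent RNA. In mRNA these shares were 3.84% and 6.17%.

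Of 33 genes of meiotic chromosomes and recombination, 19 passed the filter, with 3 higher and 1 lower in nascent RNA and 3 higher and 2 lower in mRNA, again beside 10.9% and 10.1% of all genes. All of these calls were among the 17 that passed in each genotype alone. With scaling by library size alone they became 3 higher and 0 lower in nascent RNA and 4 higher and 2 lower in mRNA. Syce1, a part of the synaptonemal complex like SYCP3, rose from 10.2 to 50.6 CPM in total RNA (2.16, adjusted p = 6.9e-22) and by 2.23 in nascent RNA (adjusted p = 1.99e-12). Sycp1, its transverse filament, rose in mRNA (1.64, adjusted p = 1.43e-10). The X-linked meiotic gene Tex11 rose in mRNA (1.54, adjusted p = 3.68e-18) and in nascent RNA (1.74, adjusted p = 3.03e-08). Stra8, the gatekeeper of meiotic entry, which lies on chromosome 6, rose in nascent RNA (1.53, adjusted p = 0.00285). Rec114, needed for meiotic DNA breaks, fell in mRNA (-1.27, adjusted p = 9.6e-12) and in nascent RNA (-1.12, adjusted p = 0.000634), and Msh4 fell in mRNA (-1.47, adjusted p = 0.00388). The median of the 17 was 0.17 in nascent RNA and 0.16 in mRNA.

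Of 12 other testis genes, 10 passed, with 1 higher and 1 lower in nascent RNA and 5 higher and 1 lower in mRNA. Over all genes, 10.9% and 10.1% were called in either direction, and 5.13% and 5.28% were called higher. However, 4 of the listed genes called passed through 1 genotype only. Among the 6 that passed in each genotype alone, 0 were called in nascent RNA by edgeR, DESeq2 or limma-voom (2 with an unadjusted p under 0.05 in edgeR) and 2 were higher and 0 lower in mRNA, with a median mRNA change of 0.64. These 2 were Rpl10l (1.11, adjusted p = 7.93e-20) and Tex19.2 (1.10, adjusted p = 0.000457), named to complete the count. With scaling by library size alone the nascent calls of the list were 3 higher and 1 lower.

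The 4 genes that passed through 1 genotype only were Slc25a31, Tuba3b and Boll, through Ddx6 KO, and Dpep3, through wild type. Slc25a31, a testis ADP/ATP carrier, had 1, 1 and 3 counts in wild-type total RNA, 54 and 58 in clone 1, and 62 and 49 in clone 2. With no filter beyond 1 count its mRNA change was 4.82 (adjusted p = 2.1e-27), its nascent change 1.25 (adjusted p = 0.121) and its stability change 3.56 (adjusted p = 0.00602), for which DESeq2, run on the filtered genes, gave no adjusted p. The testis tubulin Tuba3b on chromosome 6 had 3, 3 and 5 counts in wild-type total RNA, 24 and 14 in clone 1, and 27 and 20 in clone 2, and its change with no filter beyond 1 count was 2.37 in mRNA (adjusted p = 3.63e-06) and 2.69 in nascent RNA (adjusted p = 0.0137). The DAZ family gene Boll was at 1.46 in mRNA in the same fit (adjusted p = 0.00232). Dpep3 had 23, 29 and 24 counts in wild-type total RNA, 3 and 3 in clone 1, and 5 and 1 in clone 2, and in that fit its change was -3.13 in mRNA (adjusted p = 1.7e-11) and -3.22 in nascent RNA (adjusted p = 1.03e-07). Reads shared with near-identical copies are not counted for Tuba3b, Rpl10l and Tex19.2.

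Of all genes, 10.9% in nascent RNA and 10.1% in mRNA were called in either direction. Among 11 germ cell specification genes, all of which passed, 2 were lower and 0 higher in both nascent RNA and mRNA. Both genes, Nanos3 and Dppa3, passed through wild type only, and among the other 9 none was called by edgeR, DESeq2 or limma-voom, with an unadjusted p under 0.05 in edgeR for 5 in nascent RNA and 6 in mRNA. With no filter beyond 1 count Nanos3 was at -2.33 in mRNA (adjusted p = 0.000169) and -1.10 in nascent RNA (adjusted p = 0.0378), whereas Dppa3, on chromosome 6, was not called, at -0.94 (adjusted p = 0.0193) and -1.40 (adjusted p = 0.076). With scaling by library size alone 0 were called lower in nascent RNA and 1 in mRNA. None of 23 repressors of germline genes, among them E2f6, Max, Mga, Dnmt1 and Uhrf1, was called in any of the 3 contrasts. This held for edgeR, DESeq2 and limma-voom. In stability, 1.08% of all genes were called by edgeR. With edgeR, 12 repressors in nascent RNA, 12 in mRNA and 10 in stability had an unadjusted p under 0.05. On the adjusted p alone, 8 were higher and 4 lower in nascent RNA, 5 higher and 7 lower in mRNA, and 0 higher and 4 lower in stability. All were under the minimum size, and mRNA changes of the list ran from -0.72 to 0.91. In mRNA, Dnmt1 (-0.28, adjusted p = 7.56e-06) and Uhrf1 (-0.40, adjusted p = 2.61e-08) were lower and E2f6 (0.32, adjusted p = 0.0137) was higher. The share of all genes under either p is not given, so these counts are not read as an effect. With scaling by library size alone the methyltransferase gene Dnmt3a, named after its values were seen, was called higher in nascent RNA (1.01) and in mRNA (1.06), and with no filter beyond 1 count in mRNA (1.01). None of 6 broadly expressed paralogs and partners of the 9 genes was called by these tools either. In edgeR the unadjusted p was under 0.05 for 4 in nascent RNA, 5 in mRNA and 2 in stability. On the edgeR adjusted p alone, 4 were counted in nascent RNA and 5 in mRNA, all under the minimum size.

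**Figure D4:**
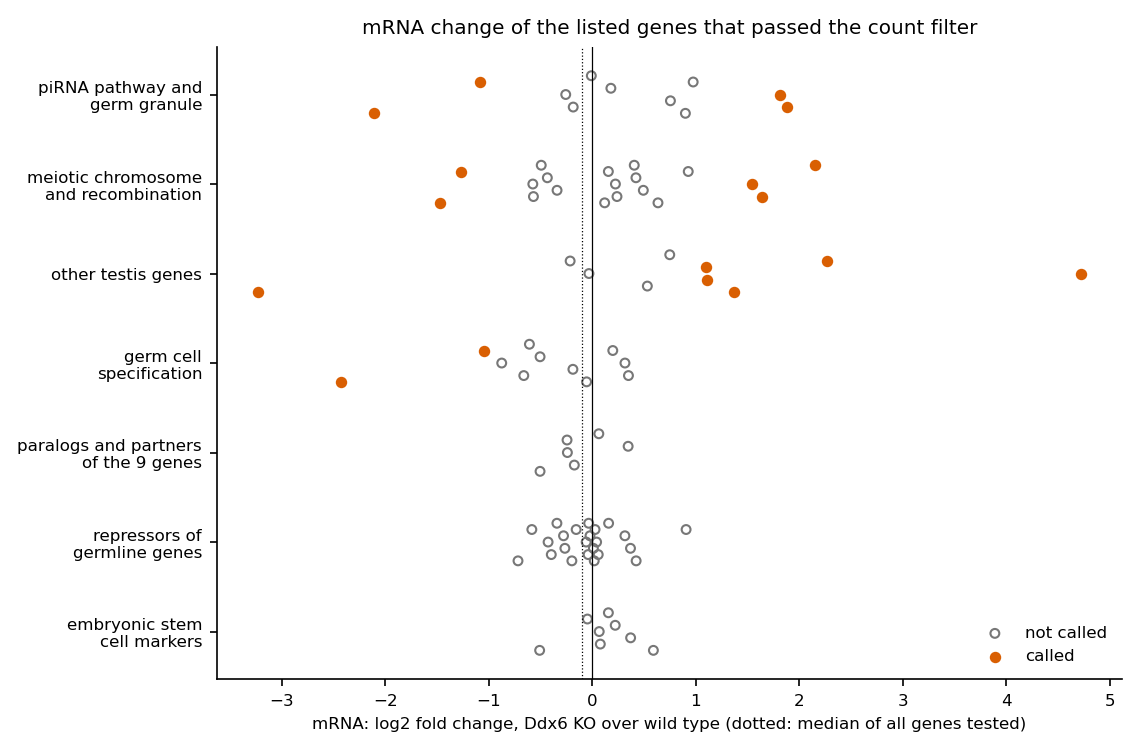
Log2 fold change of mRNA, Ddx6 KO over wild type, for the genes of 7 lists that passed the count filter, with called genes filled and others open; the dotted line is the median of all genes. Called genes of the piRNA, meiotic and other testis lists lie on both sides of 0, and 0 of 23 repressors (1 with scaling by library size alone or with no filter) and 0 of 8 ESC markers are called.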

How the data were processed

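Nascent (4sU) and total RNA of 7 cultures gave 14 libraries. Reads were trimmed (Cutadapt 1.14), mapped uniquely to mm10 (STAR 2.5.3a) and counted over exons by strand (featureCounts 1.5.3, Gencode M14 with rRNA genes removed) by the authors, who deposited raw counts per gene. Deposited gene lengths in bases gave CPM per kilobase. For 4sU, counts of the single-end and the re-sequencing run were added. The 92 ERCC rows, all at 0 counts, were left out.

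Genes that reached 3 CPM in 3 or more libraries were scaled with TMM and fitted with genotype, assay and their interaction by the edgeR 4.0.16 quasi-likelihood test in R 4.3.3, the clones in a model of line and assay. P values were Benjamini-Hochberg adjusted over all genes tested. Counts of unadjusted p under 0.05 are given without the share of all genes under that p. The study's own model was fitted with limma, here an alternative (limma-voom 3.58.1, beside DESeq2 1.42.0). The other alternatives stand in the closing section. The code was tested on simulated data. Counting intervals are exact binomial intervals of pooled counts.

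Named are the 9 genes, Ddx6, the called genes of each list (at most 4 per list and contrast by size), the highest and lowest marker of each cell type, and the gene most like each of the 9. The 9 genes and the lists were chosen with earlier results of these data known. Replicate numbers did not pair lines (r of deviations -0.10 to 0.15). The 4sU and total RNA of a culture come from 1 extract, per the labels, and their deviations had r of 0.01 to 0.07.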

Additional observations from a re-analysis of the deposited data

Results flagged for a closer look

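Dazl mRNA differed between the knockout clones, with clone 2 below clone 1 by a log2 difference of -0.52 (SE 0.12, edgeR adjusted p = 0.0151), which put it here because the difference between clones itself passed the test, although its size was under the minimum of 1. Clone 1 was at 55.1 and 48.8 CPM, clone 2 at 33.7 and 38.4 CPM, and the 3 wild-type cultures between them and partly overlapping clone 2, at 36.2 to 45.0 CPM. In nascent RNA the clones differed by -0.30 (SE 0.16, adjusted p = 0.792). Among 18 groups of 4 Ddx6 KO values screened for a culture lying apart, 0 had one.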

How the results depend on the processing

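The number of the 7 genes called was 2 in nascent RNA and 3 in mRNA under DESeq2, limma-voom, TMM within each assay, no filter beyond 1 count, either clone alone and each culture left out in turn, and with either sequencing run alone for nascent RNA. These 7 include Taf7l, which passed the filter only through Ddx6 KO. Among the other 6, edgeR, DESeq2 and limma-voom each called 1 in nascent RNA and 2 in mRNA. Over all 14518 genes, those that passed through 1 genotype only included, edgeR called 10.9% and 10.1% in either direction. Scaling by library size alone called 3 in nascent RNA, Mael being the third (log2 change 1.07, adjusted p = 0.0456), and moved the median of all genes to 0.21 in nascent RNA and 0.06 in mRNA. On the adjusted p alone, 3 were counted in nascent RNA and 4 in mRNA, Taf7l among them in each. There was also 1 in stability and 1 between clones in mRNA. The share of all genes on the adjusted p alone is not given. With replicate number as a block the counts were 2, 3 and 0 and with culture as a block the stability count was 0, so that the replicate block changed no call. In nascent RNA, mRNA and stability, 11 of the 21 values of the 7 genes changed sign under some alternative, and none of these was called. For Gtsf1l, clone 2 alone gave -6.10 in nascent RNA, -6.70 in mRNA and -0.61 in stability, and for Ssmem1 limma-voom gave 3.00 in mRNA and 2.90 in stability. Ssmem1 nascent RNA was -0.22 in the single-end run and 0.45 in the re-sequencing run. The cause of these shifts was not tested. Libraries with under 10 counts in at least 1 kind of RNA limit what can be seen. This holds for Ssmem1, Mael, Taf7l and Mov10l1 in wild type and for Gtsf1l, Ssmem1 and Mael in Ddx6 KO.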
